A study of Mus musculus with 4 samples.

Results

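The enzymes that load one-carbon units onto folate and move them between mitochondria and cytosol were followed in mouse 4T1 cells after knockdown of lactate dehydrogenase A. They are 9 genes, Aldh1l2, Mthfd1l, Mthfd2, Mthfd2l and Shmt2 of the mitochondrial arm and Aldh1l1, Mthfd1, Mthfs and Shmt1 of the cytosolic arm. Each was found as a gene whose symbol is the only one given to a probe set, the group of array probes read as 1 value, and the 9 genes had 9 probe sets, among 22180 genes in all. The group was put together with the difference between knockdown and control cells already known, above all that of Aldh1l2. The values of the 9 genes in that comparison are therefore given as a description, with no p-value for any of them.

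The knockdown cells (shLDHA) carried a short hairpin RNA against Ldha, were selected with puromycin at 10 µg/ml and were kept as a mixed population rather than as a clone. The control cells (scramble) carried a scrambled hairpin, and the labels do not say whether these were selected too. The genotype labels and titles separate the groups, but the cell type label reads LDHA on all 4 samples. Both were 4T1, a mouse mammary carcinoma line, kept in complete medium for 24 hours. Whole-transcript Affymetrix arrays were hybridised from 400 ng of total RNA, with 2 shLDHA and 2 scramble arrays. The labels do not state that the replicates were separate cultures, so SDs and p-values reflect only how far these 4 arrays scatter, possibly for technical reasons, and the small number of arrays limits the precision.

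Mammalian cells take most one-carbon units from serine. In mitochondria, SHMT2 transfers a carbon from serine to tetrahydrofolate, MTHFD2 and MTHFD2L oxidise it, and MTHFD1L releases it as formate, which leaves for the cytosol. ALDH1L2 is the branch that ends the route inside mitochondria: it oxidises formyl-tetrahydrofolate to carbon dioxide and makes NADPH. In the cytosol, MTHFD1 recharges folate with formate, SHMT1 interconverts serine and glycine, ALDH1L1 is the oxidising counterpart of ALDH1L2, and MTHFS returns the storage form, formyl-folate, to the active pool. The carbons serve purine, thymidylate and methionine synthesis, for which dividing tumour cells have a high demand.

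On the arrays, the 6 epithelial markers Epcam, Cdh1, Krt8, Krt18, Krt7 and Cldn4 had means of 8.73 to 10.36 on the log2 scale. Their summed levels were 57.69 and 57.78 in shLDHA and 56.39 and 56.49 in scramble. At an adjusted p under 0.05 by limma, 2 of the 6 were called, both higher in shLDHA. Of all genes, 3.37% were called higher and 6.36% in either direction. The part of these markers in the results below was not tested. Olfactory receptor genes, which are silent in most tissues, served as a mark for dim signals: 95% of the 1105 measured had a mean at or below 4.19. All 5 leukocyte markers and all 4 endothelial markers measured were at or below that level, as were 5 of 6 fibroblast markers, Pdgfra being the exception at 6.504. The summed log2 levels of these lists were 15.35 and 15.41 on the shLDHA arrays, against 14.88 to 15.52 in scramble, for leukocytes, 12.88 and 12.94 against 12.82 and 12.84 for endothelium, and 21.45 and 21.88 against 21.69 and 21.71 for fibroblasts. The targeted Ldha, which encodes the subunit that favours the conversion of pyruvate to lactate, read 6.31 and 6.15 in shLDHA and 6.69 and 6.96 in scramble. Its log2 difference was -0.59 (SE 0.12, adjusted p = 0.0390 by limma over all genes), and the call was lost when scramble replicate 2 (adjusted p = 0.128) or either shLDHA array was left out (adjusted p = 0.0965 for replicate 1 and 0.163 for replicate 2), and with a replicate block (adjusted p = 0.0734).

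Aldh1l2 stood apart from the rest of the pathway. Its probe set read 6.20 and 6.27 on the shLDHA arrays and 3.89 and 3.74 on the scramble arrays. Both scramble arrays lay in the dim range of the olfactory receptor genes, and both shLDHA arrays lay well above it, with no overlap between the groups. The means were 6.24 ± 0.06 in shLDHA and 3.81 ± 0.11 in scramble (SD, n = 2 each), a log2 difference of 2.42 (SE 0.09), or 5.37-fold. Because array signals flatten near their floor, a fold that starts from a dim level may understate the change in RNA. The gap between replicates was 0.08 in shLDHA and 0.15 in scramble, both far smaller than the difference between the groups.

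**Figure D1:**
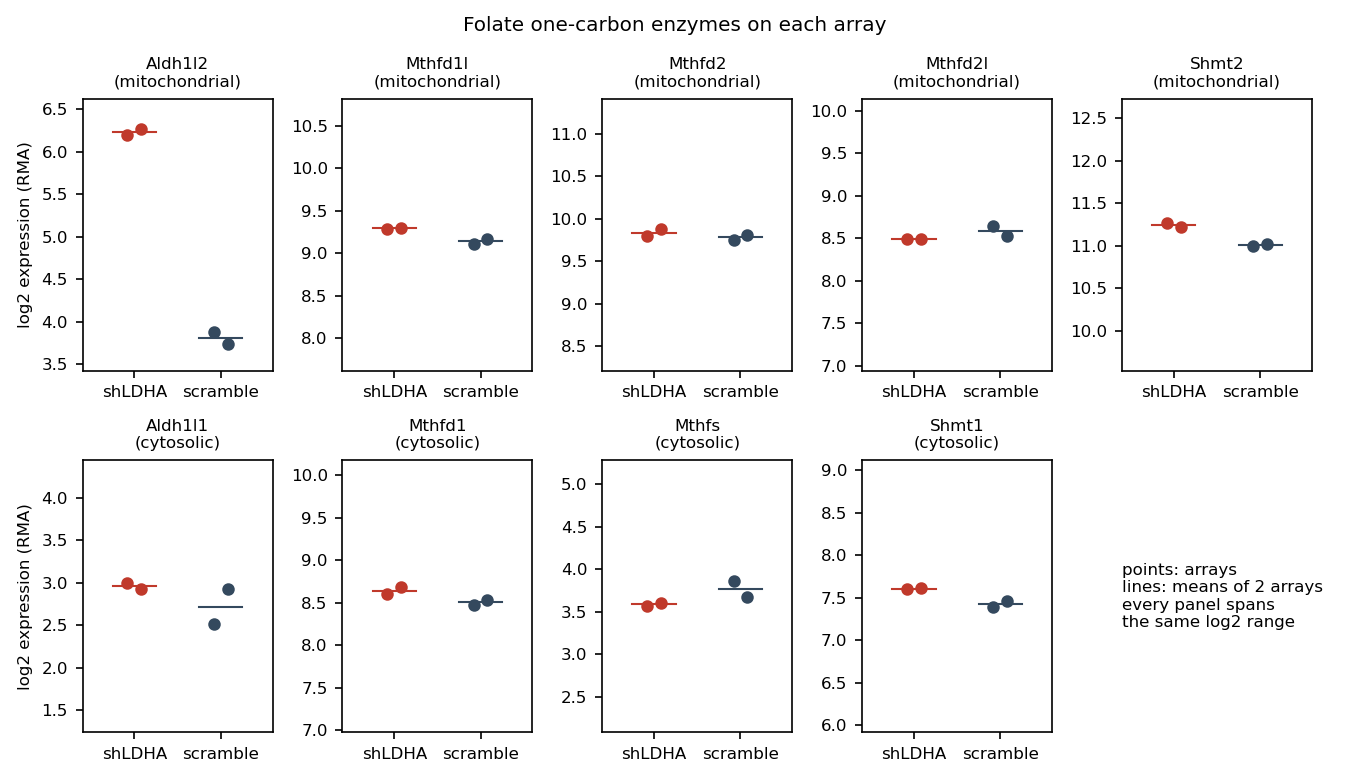
Log2 expression (RMA) of each folate enzyme on the 2 shLDHA arrays and the 2 scramble arrays, with group means as lines; every panel spans the same log2 range. Aldh1l2 read 6.20 and 6.27 in shLDHA and 3.89 and 3.74 in scramble, while the points of the other enzymes stayed within a narrow band.

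Among all 22180 genes, 0 had a larger rise on the log2 scale than Aldh1l2, so it ranked 1 by this measure. The middle of the distribution was narrow: the 5th and 95th percentiles of all log2 differences were -0.35 and 0.37, with a median of 0.01. The other 8 folate enzymes all lay within that range.

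**Figure D2:**
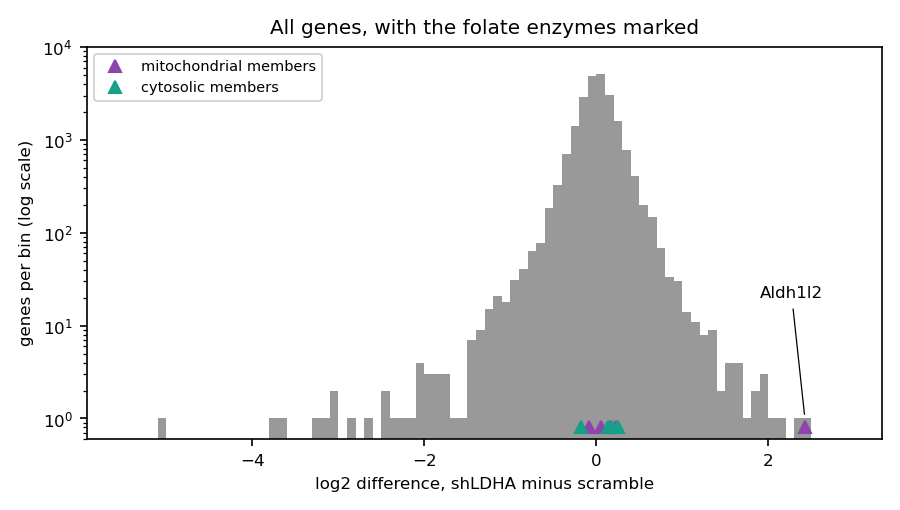
Number of genes (log axis) by log2 difference, shLDHA minus scramble, for 22180 genes, with triangles for the mitochondrial and the cytosolic folate enzymes. Aldh1l2 sits at 2.42, at the right end, and the other 8 enzymes sit between -0.18 and 0.25.

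The steps that feed and compete with ALDH1L2 in mitochondria changed little. Shmt2, the gene of the enzyme that brings serine carbons in, read 11.27 and 11.22 in shLDHA, against 11.00 and 11.02 in scramble. The groups did not overlap, and the log2 difference was 0.23 (SE 0.08), or 1.17-fold. Mthfd1l, whose product releases formate, read 9.28 and 9.30 in shLDHA and 9.11 and 9.16 in scramble, again without overlap, with a log2 difference of 0.15 (SE 0.08).

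The paired oxidation genes were the flattest of the mitochondrial arm. Mthfd2, which is strongly expressed in many tumours and in embryos but little in most adult tissues, read 9.79 and 9.88 in shLDHA and 9.75 and 9.81 in scramble. It was the member whose groups overlapped, with a log2 difference of 0.05 (SE 0.09). Mthfd2l, its relative that adult tissues also express, read 8.49 and 8.49 in shLDHA and 8.65 and 8.52 in scramble. Both shLDHA arrays were lower, by a log2 difference of -0.09 (SE 0.09), which is smaller than the gap of 0.12 between the scramble arrays.

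In the cytosol, Shmt1 read 7.60 and 7.62 in shLDHA and 7.39 and 7.46 in scramble, a log2 difference of 0.18 (SE 0.08). Mthfd1, the gene of the trifunctional enzyme that recharges folate, read 8.59 and 8.68 in shLDHA and 8.48 and 8.53 in scramble, a difference of 0.13 (SE 0.09). Both were higher on each shLDHA array than on either scramble array, by about as much as Shmt2 and Mthfd1l in mitochondria.

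Aldh1l1, the cytosolic relative of Aldh1l2, was dim in both groups. It read 2.996 and 2.934 in shLDHA and 2.51 and 2.92 in scramble. The log2 difference of 0.25 (SE 0.14) was smaller than the gap of 0.41 between the scramble arrays, and it was 0.04 without scramble replicate 1 and 0.45 without scramble replicate 2. All 4 arrays were below the level that marks dim signals, where a change may be understated.

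Mthfs was dim as well, at 3.57 and 3.61 in shLDHA and 3.87 and 3.68 in scramble, a log2 difference of -0.18 (SE 0.10). Both shLDHA arrays were lower, and the gap between the scramble arrays was 0.19. A gene of a similar name, Mthfsl, has a probe set of its own, which read 6.14 and 6.11 in shLDHA and 6.35 and 6.29 in scramble. Its log2 difference was -0.20 (SE 0.08), with an adjusted p of 0.236 by limma. Whether each of these 2 probe sets also binds RNA of the other gene was not tested. Mthfsl is not among the 9 genes and was added after its values were seen.

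**Figure D3:**
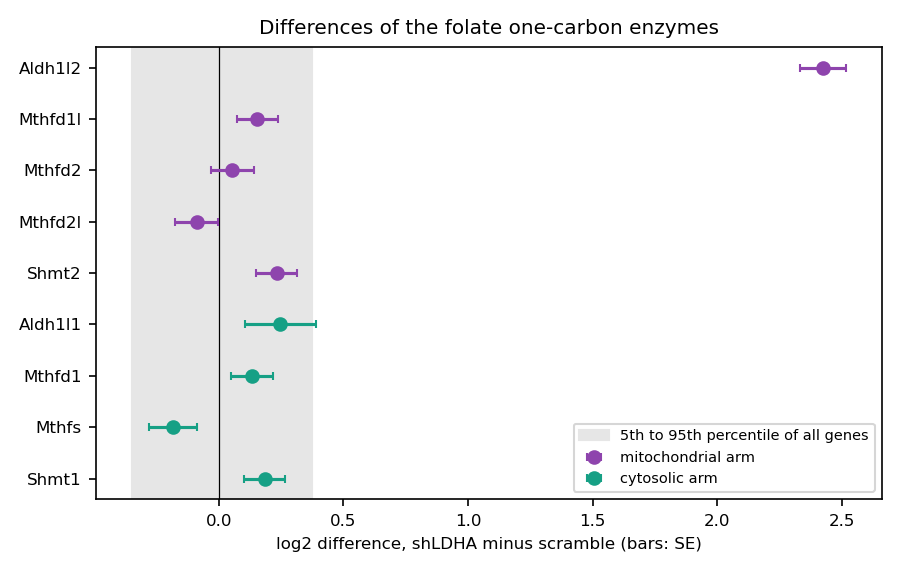
Log2 difference, shLDHA minus scramble, of the 5 mitochondrial and 4 cytosolic enzymes, with SE from the fit across all genes as bars; the grey band runs from the 5th to the 95th percentile of all genes. Aldh1l2 lies at 2.42, outside the band of -0.35 to 0.37, and the other 8 points lie inside it.

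In the limma fit across all genes, 1 of the 9 enzymes, Aldh1l2, was past an adjusted p of 0.05, beside 6.36% of all genes in either direction 3.37% for those higher and 2.99% for those lower in shLDHA. Both shLDHA arrays were above both scramble arrays for 6 enzymes and below them for 2, where 26.2% and 24.0% of all genes did the same, 50.3% together. Nothing is read from these counts, since this comparison helped to choose the genes. The median log2 difference was 0.15 over the 9 enzymes and 0.14 over the 8 without Aldh1l2, beside 0.01 over all genes.

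The mean difference between the mitochondrial and the cytosolic arm rested on Aldh1l2. As the mean deviation from each gene's scramble mean, the mitochondrial arm stood at 0.54 and 0.57 on the shLDHA arrays and at 0.01 and -0.01 on the scramble arrays. The cytosolic arm stood at 0.09 and 0.10 in shLDHA and at -0.04 and 0.04 in scramble. The mitochondrial mean difference exceeded the cytosolic one by 0.46 on the log2 scale. With Aldh1l2 left out, the mitochondrial arm stood at 0.08 and 0.09 in shLDHA, and the difference between the arms was -0.0078. By medians it was -0.0046, and with the dim Mthfs left out of the cytosolic arm it was 0.37.

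The genes whose values over the 4 arrays were most like those of Aldh1l2 were sought as the 5 smallest Euclidean distances after centring each gene on its scramble mean. Vdr, the vitamin D receptor gene, was nearest at a distance of 0.22, with 6.58 and 6.64 in shLDHA and 4.14 and 4.29 in scramble. Epb41l4a followed at 0.54, the claudin gene Cldn9 at 0.63, the zinc finger gene Zfp979 at 0.63 and Afap1l2 at 0.66. Zfp979 has 3 probe sets, whose mean gave a log2 difference of 0.84 instead of 2.20, while the other 4 genes have 1 each. With 4 arrays in 2 groups, this likeness says little more than that these genes were higher in shLDHA by a similar amount, with log2 differences of 1.98 to 2.39. On the scramble arrays Epb41l4a read 3.91 and 4.00 and Zfp979 3.33 and 3.47, in the dim range, so their differences may understate the change.

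Genes around the folate enzymes were grouped by function in 6 lists, drawn up with earlier results of these data known. Their tests come from the same limma fit with adjustment over all genes. Of 50 tested genes, 6 rose and 2 fell in shLDHA, which is 16% beside the 6.36% of all genes. The 3 that held with any 1 array left out were all in the list of ATF4 and its known targets. Of the genes called in that list, 3 rose and 2 fell in shLDHA, and Atf4 itself had a log2 difference of -0.06. Outside that list, 3 of 34 genes in 5 lists were called, or 8.82%, and the median log2 difference of the 34 was 0.01, as over all genes. With genes below the median level left out, 14 of 41 genes of the 6 lists were called, beside 2783 of all 11090.

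Serine supply held no call. Of the 5 genes of serine synthesis and mitochondrial serine entry, 0 passed limma's test over all genes. Sfxn1, which encodes the serine carrier of the inner mitochondrial membrane, had a log2 difference of 0.28 (SE 0.08, adjusted p = 0.108) and its relative Sfxn3 one of 0.30 (SE 0.09, adjusted p = 0.122). Psat1, the aminotransferase gene of serine synthesis, had a log2 difference of 0.25 (SE 0.08, adjusted p = 0.143). At an unadjusted p, limma gave 0.0124, 0.0156 and 0.0208 for these 3, whose groups did not overlap, and they passed with a trended variance prior (adjusted p = 0.00374, 0.0184 and 0.0114) or with genes below the median level left out (0.0300, 0.0384 and 0.0449).

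Of 7 tested genes of folate uptake and retention, 0 passed, and all 7 differences were below 0. Fpgs, whose product adds the glutamate tail that keeps folate inside the cell, had the largest, at -0.34 (SE 0.09, adjusted p = 0.0735). It read 5.69 and 5.75 in shLDHA and 6.11 and 6.02 in scramble, and passed with the median filter (adjusted p = 0.0190) and the trended prior (0.0422). The reduced folate carrier gene Slc19a1 (-0.23, adjusted p = 0.233) and Slc25a32, the mitochondrial folate carrier gene (-0.18, adjusted p = 0.389), came next. The list median was -0.09. By limma, 1 of these genes had an unadjusted p under 0.05, as did 4778 of all 22180 genes.

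Among the 8 genes of glycine cleavage and other mitochondrial folate enzymes, 0 passed. By limma, 0 of them had an unadjusted p under 0.05, beside 4778 of all 22180 genes. The smallest p-values belonged to Dmgdh (-0.17, adjusted p = 0.337), Gcsh (-0.20, adjusted p = 0.393) and Dld (0.12, adjusted p = 0.471). Dmgdh was dim, at 2.77 and 2.90 in shLDHA and 2.98 and 3.03 in scramble, where a change may be understated.

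In thymidylate and purine synthesis, pathways that draw on one-carbon units, 1 of 6 tested genes rose. The list holds enzymes of these pathways whether or not their own step takes a carbon. Adsl, a purine enzyme gene, read 8.45 and 8.59 in shLDHA and 8.02 and 7.98 in scramble, a log2 difference of 0.52 (SE 0.09, adjusted p = 0.0243). Paics, another purine enzyme gene, had a difference of 0.33 (adjusted p = 0.0699) and the thymidylate synthase gene Tyms one of 0.38 (adjusted p = 0.0778). With the median filter and with the trended prior both passed, Paics at an adjusted p of 0.0171 and 0.00106 and Tyms at 0.0216 and 0.0155; Paics also passed with the dimmest 25% of genes left out (adjusted p = 0.0474). Gart, whose product takes a carbon from formyl-tetrahydrofolate in purine synthesis, had one of -0.13 (adjusted p = 0.450). Pfas was not analysed here. With any 1 array left out the adjusted p of Adsl was 0.0659 to 0.113.

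In the methionine cycle and transsulfuration list, 2 of 8 tested genes rose. Mat2b, the regulatory subunit gene of methionine adenosyltransferase, read 6.60 and 6.64 in shLDHA and 6.21 and 6.10 in scramble, a log2 difference of 0.46 (SE 0.09, adjusted p = 0.0309). Cth, which encodes the enzyme that makes cysteine from cystathionine, read 9.57 and 9.59 in shLDHA and 9.18 and 9.11 in scramble, a difference of 0.44 (SE 0.08, adjusted p = 0.0324). The remaining 6 did not pass, among them the methionine synthase gene Mtr (0.12), its reductase gene Mtrr (-0.15) and Ahcy (0.14), with limma's adjusted p between 0.361 and 0.526. With any 1 array left out, the adjusted p was 0.0739 to 0.139 for Mat2b and 0.0975 to 0.143 for Cth. Mat2a was not analysed here.

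**Figure D4:**
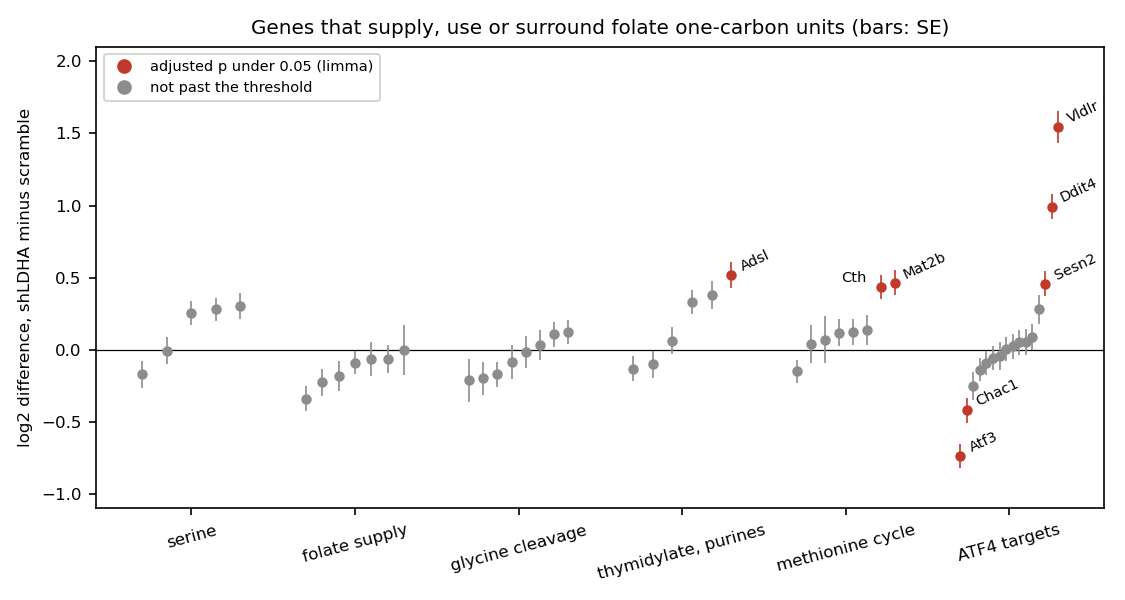
Log2 difference, shLDHA minus scramble, of 50 genes in 6 functional lists, with SE as bars; red points had an adjusted p under 0.05 in limma's fit over all genes. Adsl, Mat2b and Cth were called outside the ATF4 list, and within it Vldlr, Ddit4 and Sesn2 were higher and Atf3 and Chac1 lower.

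Aldh1l2, Mthfd2, Shmt2, Psat1 and Cth are known from other work as genes that the stress-response factor ATF4 can switch on. Of 16 genes in the list of ATF4 and its targets outside the folate enzymes, 3 rose and 2 fell, and the list median was 0.01. Vldlr, a lipoprotein receptor gene, read 5.45 and 5.73 in shLDHA and 4.02 and 4.07 in scramble, a log2 difference of 1.54 (SE 0.11, adjusted p = 0.00157). Both scramble arrays lay in the dim range, so this difference too may understate the change. Ddit4, an inhibitor of mTORC1, rose by 0.99 (SE 0.09, adjusted p = 0.00296) and Sesn2, another such inhibitor, by 0.46 (SE 0.09, adjusted p = 0.0319).

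Atf3, a stress-induced transcription factor gene, fell to 8.72 and 8.72 in shLDHA, against 9.46 and 9.46 in scramble (log2 difference -0.74, SE 0.08, adjusted p = 0.00559). Chac1, a glutathione-degrading enzyme gene that stress induces, changed by -0.42 (SE 0.09, adjusted p = 0.0426). Of the 11 genes of this list that did not pass, Atf5, a related factor gene, had the smallest p, with a log2 difference of 0.28 (adjusted p = 0.173, or 0.0377 with the trended prior), followed by Stc2, which encodes the secreted glycoprotein stanniocalcin (-0.26, adjusted p = 0.194). At an unadjusted p under 0.05, limma gave 7 of the 16, beside 4778 of all 22180 genes. Atf4 itself had a log2 difference of -0.06 (adjusted p = 0.766), Asns, the asparagine synthetase gene, one of -0.14 (adjusted p = 0.400) and Trib3 one of 0.09 (adjusted p = 0.648). Array values show RNA only, and ATF4 is controlled largely at translation. With any 1 array left out, the adjusted p was 0.0855 to 0.136 for Sesn2 and 0.1000 to 0.160 for Chac1.

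Promoter windows of 300 bases, from 250 before to 50 after the start of a gene, were taken from RefSeq on build GRCm38.p6, where 8 of the 9 enzymes matched and Aldh1l2 did not. They were searched on both strands for the composite element that ATF4 binds with C/EBP proteins, spelled TGATGNAA. These letters were in 0 of the 9 windows of the 8 enzymes, beside 3.97% of all 32851 windows. They were in windows of 7 of the 14 matched genes of the ATF4 list. A site of each of the 7 is printed because they hold nearly the same letters in genes that moved in opposite directions or were not called. Each stretch is 30 bases long, with the motif in capitals, on the strand of the gene; the Asns and Slc7a11 sites read in the direction spelled above, and the Slc7a11 window holds a second match.
Vldlr (chr19:27216809-27216838, + strand): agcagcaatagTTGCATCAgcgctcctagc
Atf3 (chr1:191183425-191183454, - strand): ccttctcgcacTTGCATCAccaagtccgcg
Chac1 (chr2:119351038-119351067, + strand): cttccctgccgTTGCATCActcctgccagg
Trib3 (chr2:152344028-152344057, - strand): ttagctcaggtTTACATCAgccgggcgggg
Asns (chr6:7693214-7693243, - strand): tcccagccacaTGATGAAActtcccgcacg
Nupr1 (chr7:126625562-126625591, - strand): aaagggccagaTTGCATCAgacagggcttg
Slc7a11 (chr3:50443661-50443690, - strand): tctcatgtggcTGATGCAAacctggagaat
The Vldlr, Atf3, Chac1 and Nupr1 sites share all 8 letters of the motif, and the Slc7a11 site is their reverse complement. Vldlr, dim in scramble, had a log2 difference of 1.54, Atf3 one of -0.74 and Chac1 one of -0.42, while Nupr1 (-0.09, adjusted p = 0.608) and Slc7a11 (0.02, adjusted p = 0.927) did not pass. A match is a description of the letters and shows no binding.

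The upstream sequences of the mitochondrial and the cytosolic serine enzyme genes are shown because both RNAs differed by a similar small amount, 0.23 and 0.18, while the motifs found in their windows differ. GCATGC, the palindromic core of the element of the nuclear respiratory factor NRF1, was in 1 of the 8 enzymes, Shmt2, beside 7.93% of all windows; it starts 17 bases before the start of the gene. CCAAT, the box bound by NF-Y, was in 4 of the 8 (Aldh1l1, Mthfd1, Mthfd2 and Shmt1), beside 37.4% of all windows. The 250 bases before each start are given on the strand of the gene, with these motifs in capitals.
Shmt2 (chr10:127522445-127522694, - strand): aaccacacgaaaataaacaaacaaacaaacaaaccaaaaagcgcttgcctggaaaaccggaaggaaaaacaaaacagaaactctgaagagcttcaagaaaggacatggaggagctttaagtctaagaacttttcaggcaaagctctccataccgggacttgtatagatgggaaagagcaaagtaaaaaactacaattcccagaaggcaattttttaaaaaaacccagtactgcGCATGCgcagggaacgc
Shmt1 (chr11:60811266-60811515, - strand): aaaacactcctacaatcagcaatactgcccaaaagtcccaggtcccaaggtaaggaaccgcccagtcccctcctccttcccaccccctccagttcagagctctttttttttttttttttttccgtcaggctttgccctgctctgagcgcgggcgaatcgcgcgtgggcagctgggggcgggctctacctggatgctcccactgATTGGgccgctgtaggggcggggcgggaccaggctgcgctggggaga
In Shmt1 the CCAAT box reads as its reverse complement, ATTGG, on the gene's strand. The absence of a motif says only that its letters are not in the window searched.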

How the data were processed

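The authors deposited log2 expression values of 4 arrays, made with RMA in R 3.4.0 per the submitters' processing notes. Over 41345 probe sets the values ran from 1.23 to 12.91. Array medians were 3.90 and 3.87 in shLDHA and 3.87 and 3.87 in scramble. Groups and replicate numbers came from the sample titles, and 0 columns were left out. A platform annotation table gave 1 symbol to 23521 probe sets, several to 1814 and none to 16010; only the first entered. For the 1082 genes with several probe sets the one with the highest mean was kept, leaving 22180 genes; each folate enzyme had 1.

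The comparison used lmFit and eBayes of limma 3.58.1 (R 4.3.3) without covariate or filter on dim genes, two-sided, with Benjamini-Hochberg adjustment over all genes and a threshold of 0.05, which 1410 genes passed, 747 higher and 663 lower in shLDHA. The fit had 2 residual and 4.52 prior degrees of freedom. The code recovered large known differences in simulated data, and how often it calls smaller ones is not given here. The 9 members and the 6 functional lists were chosen with earlier results of these data known. Named were all 9 members, Ldha, the 5 genes most like Aldh1l2 and, from each list, all genes past the threshold and up to 3 others with the smallest p; Atf4, Trib3, Nupr1 and Slc7a11 were added after their values were seen. Alternatives were 13 refits (a replicate block, filters, rescaling, probe choice, variance priors and each array left out) and 3 ways to sum up the arms. Same-numbered arrays did not deviate together (correlation of -0.03 across genes). Positions are those of RefSeq promoter windows on GRCm38.p6. For the probe sets, neither the annotation version nor its build was stated in the sources used here, so they get no positions. Figures were drawn with matplotlib 3.10.9.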

Additional observations from a re-analysis of the deposited data

How the results depend on the processing

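The log2 difference of Aldh1l2 ran from 2.35 to 2.50 over the fits without 1 array and stayed within that range in the other 9 refits. Of the 9 enzymes, 1 was past the threshold in 12 of 13 refits, always Aldh1l2, and 2 with a trended variance prior, which adds Shmt2; since this comparison helped to choose the enzymes, these counts are no evidence of stability. The difference between the arms was 0.40 to 0.52 without 1 array, 0.40 with genes below the median level left out, which removes Aldh1l1 and Mthfs, -0.0046 by medians, -0.0078 without Aldh1l2 and 0.37 without Mthfs. Genes past the threshold numbered 838 with a replicate block, 2783 with the median filter, 2806 with the trended prior and 370 to 636 without 1 array. Of the genes around the folate enzymes, 3 were called with the replicate block, 14 of 41 with the median filter, 15 with the trended prior and 3 without each array in turn, against 8 of 50 in the fit reported. Calls among all genes were 2783 of 11090 with the median filter, beside 14 of 41 list genes. With the trended prior they were 2806 of 22180, beside 15 of 50, and with the block 838 of 22180, beside 3 of 50. The share of all genes called thus rose with the filter and the prior too. A rise in the list counts there is therefore not specific to the lists. Fewer arrays or a block leave fewer residual degrees of freedom, and the cause of the other moves was not tested. Of 349 refits of named genes outside the 9 enzymes, 306 kept their side of the threshold, 29 lost a call, 14 gained one and 0 changed direction. Ldha, Adsl, Mat2b, Cth, Sesn2 and Chac1 lost theirs with the block (adjusted p of 0.0529 to 0.0826). The lack of reversed directions is no evidence of stability. The block, filter and variance prior refits return the same difference. Leaving out 1 array cannot reverse a gene whose groups do not overlap, as held for nearly all of these genes. In all 101 refits of the 8 enzymes other than Aldh1l2, the estimated difference moved from that of the fit reported by no more than the replicate SD. This is no evidence of stability, since leaving out 1 of 2 arrays cannot move an estimate beyond that SD. Most of the other refits returned the same estimate. The shared replicate numbers name arrays only, so the block is given as a variant. With 2 arrays a group, differences near the SE of about 0.09 cannot be resolved, and differences several times the SE may not pass either. Fpgs, at -0.34 (SE 0.09), and Tyms, at 0.38 (SE 0.10), did not pass in the fit reported. Aldh1l1, Mthfs, Dmgdh and, in scramble, Aldh1l2, Vldlr, Epb41l4a and Zfp979 lie near the floor.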
